A study of Mus musculus with 17 samples.

Results

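The proximal tubule is the stretch of the nephron that takes back most of what the glomerulus filters. This account follows 35 named genes of that tubule, out of 31053 genes in the deposited gene list, through the 9 kidney libraries of the series. The genes were listed by name, with earlier results of these data known. By role they comprise 2 phosphate carriers, 2 endocytic receptors, 3 glucose or monocarboxylate carriers, 7 amino acid transporter genes, 3 sulfate or dicarboxylate carriers, 3 organic anion and urate carriers, 3 genes of fatty acid, bicarbonate or water handling, 8 metabolic genes, and 4 androgen-regulated or cytochrome P450 genes. Each was measured in CPM, its UMIs (tagged RNA molecules) per 1000000 UMIs of the population, first over all cells kept in a library and then over the cells with at least 3 UMIs of Slc34a1 and Lrp2 together. These last are called Slc34a1+Lrp2 cells, and they made up 29653 of 71324 cells kept. Slc34a1 and Lrp2 define that population and were given no test in it, which left 33 genes there.

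Proximal tubule cells reabsorb glucose, amino acids, phosphate, bicarbonate and filtered protein by sodium-coupled carriers and by the receptor pair megalin and cubilin. They are rich in mitochondria, burn fatty acids and make glucose, and the early part of the tubule (S1) uses other carriers than the late part (S3). Aristolochic acid is a plant compound that forms DNA adducts, enters these cells by organic anion transport and is known for injuring them.

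All mice were 8 weeks old and carried PDGFRb-Cre with the Z/EG reporter, in which GFP marks cells where Cre has been active together with their descendants. SARATg mice also carried human ZFYVE9, the gene for the SARA protein, in the Rosa26 locus behind a stop that Cre removes, driven by the CAG promoter, whereas SARAWT mice did not. Aristolochic acid was injected into the peritoneum at 5 mg/kg 3 times a week for 3 weeks, and control mice got vehicle by the same route. GFP-positive kidney cells were sorted from enzyme-digested tissue and sequenced as single cells with 10x Genomics 3′ chemistry. There were 3 SARAWT vehicle libraries, 3 SARAWT aristolochic acid libraries, 2 SARATg vehicle libraries and 1 SARATg aristolochic acid library. Nothing states that each library came from a separate animal, so p-values measure only the spread between these libraries.

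Libraries held 5008 to 13190 cell barcodes and 28660151 to 137093834 UMIs, and 1.66% to 2.13% of a library's barcodes also occurred in another kidney library. The labels call the sorted cells PDGFRb-positive and GFP-positive, but Pdgfrb itself was at 0.186 to 3.00 CPM, and 6 stroma and pericyte markers summed to 4.33 to 219.8 CPM. Slc34a1+Lrp2 cells took 9.73% to 82.2% of the cells kept and leukocyte barcodes 8.88% to 82.5%. Of the Slc34a1+Lrp2 cells, 3.38% to 24.0% also held a UMI of the leukocyte gene Ptprc. Mouse Zfyve9, which reads with human ZFYVE9 may share, went against the labels in 2 libraries: it stood at 167 CPM in the library labelled SARAWT aristolochic acid 1, against 11.1 to 31.7 CPM in the other 5 SARAWT libraries, and at 20.7 CPM in the library labelled SARATg aristolochic acid 1, against 93.3 and 91.6 CPM in SARATg vehicle. Xist, the RNA of the inactive X chromosome, was at 1327 CPM in SARAWT vehicle 2 and 1321 CPM in SARATg aristolochic acid 1 and at or below 0.477 CPM in the other 7 libraries, where the Y-linked Ddx3y was at 53.1 CPM or more. In the 2 libraries with high Xist, Xist and the other sex-linked genes measured, all Y-linked, summed to 1327 and 1321 CPM. Xist thus made up nearly all of these sums. The labels give no sex.

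The library labelled SARAWT vehicle 3 stood apart from the other vehicle libraries. In its Slc34a1+Lrp2 cells Cdkn1a, a cell cycle inhibitor induced by DNA damage, was at 285 CPM, against 21.5 and 7.85 CPM in SARAWT vehicle 1 and 2 and 187 to 266 CPM in the SARAWT aristolochic acid libraries. Havcr1, the tubule injury marker KIM-1, was at 57.6 CPM there, against 0.966 and 3.61 CPM in the other SARAWT vehicle libraries and 18.2 to 45.9 CPM after aristolochic acid. Library numbers in the labels fall into 3 blocks. Numbers 572 and 576 are SARAWT vehicle 1 and 2, numbers 1618 to 1623 hold SARAWT vehicle 3 with aristolochic acid 1 of both genotypes, and numbers 1656 to 1663 hold both SARATg vehicle libraries with SARAWT aristolochic acid 2 and 3. Comparisons below are also given without the libraries that stood apart.

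**Figure D1:**
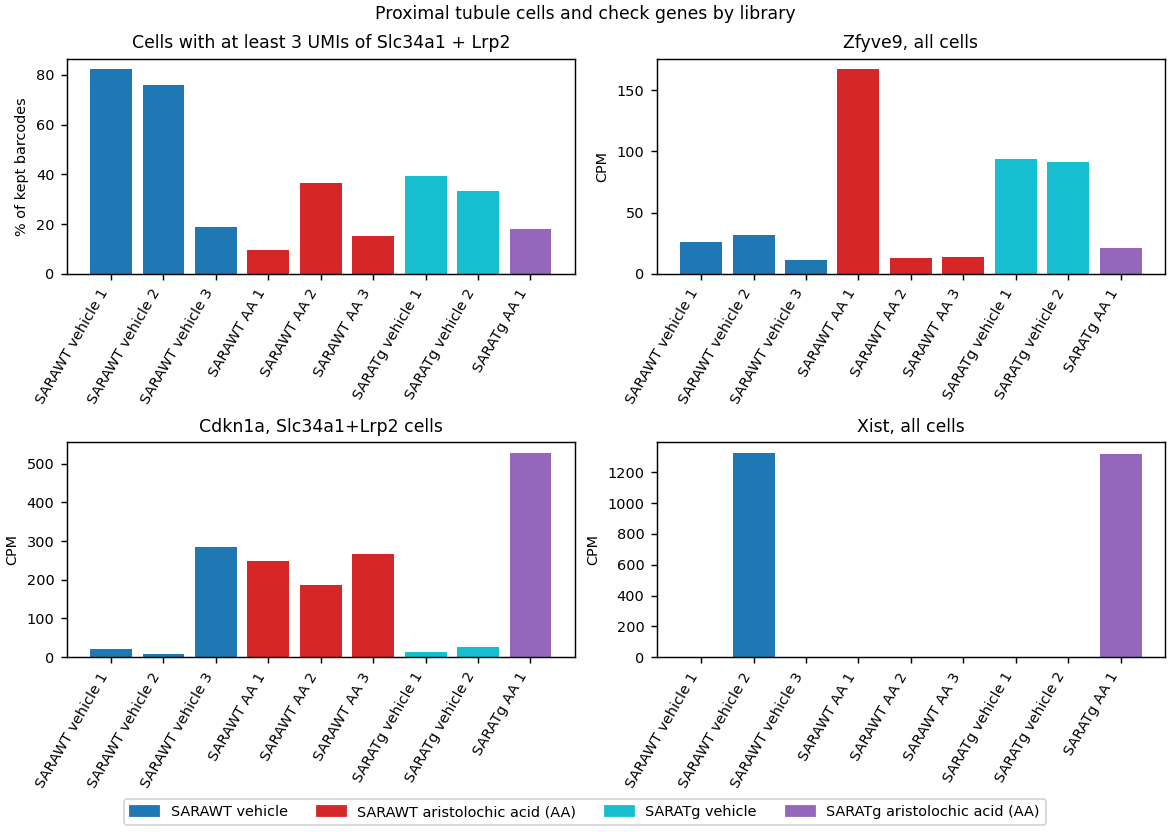
Bars give, for each of the 9 kidney libraries, the percent of kept barcodes with at least 3 UMIs of Slc34a1 plus Lrp2, Zfyve9 in CPM over all cells, Cdkn1a in CPM over Slc34a1+Lrp2 cells, and Xist in CPM over all cells, coloured by labelled group with no error bar because each bar is 1 library. SARAWT vehicle 3 lies at 18.7% Slc34a1+Lrp2 cells and 285 CPM of Cdkn1a, near the aristolochic acid libraries, and Xist is high in SARAWT vehicle 2 and SARATg aristolochic acid 1.

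For the sequence context of the androgen-regulated and P450 genes, whose levels differed widely between libraries, 250 bases before the RefSeq start (GRCm38.p6) were searched on both strands for TGTTCT, a half-site that androgen and glucocorticoid receptors read. RefSeq promoters were matched for 28 of the 35 genes. TGTTCT or its reverse complement AGAACA lay before 5 of them (17.9%: Cyp4b1, Slc26a1, Slc34a1, Slc6a19 and Slc7a7), and before 18.2% of 27025 genes. Of the androgen-regulated and P450 genes, Kap and Cyp2e1 were searched and held no match, and Cyp7b1 had no matched promoter. A match is a description of letters only. The upstream bases of Cyp4b1, a cytochrome P450 that held the match among these genes, are shown 5′ to 3′ on the gene's strand, with the match in capitals.
Cyp4b1 (chr4:115647724-115647971, minus strand, TGTTCT from base 248 upstream): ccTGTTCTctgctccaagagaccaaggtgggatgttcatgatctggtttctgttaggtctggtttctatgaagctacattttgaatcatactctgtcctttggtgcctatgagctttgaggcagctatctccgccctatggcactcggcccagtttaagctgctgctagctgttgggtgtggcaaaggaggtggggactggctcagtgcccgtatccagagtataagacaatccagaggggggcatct

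The first comparison asked how aristolochic acid and the proximal tubule genes went together in SARAWT mice, over all cells. The share of Slc34a1+Lrp2 cells was 82.2%, 75.9% and 18.7% in the vehicle libraries and 9.73%, 36.4% and 15.4% in the aristolochic acid libraries, so SARAWT vehicle 3 overlapped with the treated group. The mean was 20.5% ± 14.1 (SD, n = 3) after aristolochic acid against 59.0% ± 34.96 (SD, n = 3) after vehicle. That difference of -38.5 percentage points was not past the threshold in the two-sided exact permutation test (p = 0.200), which cannot go below 0.1 in a design of 3 against 3. Without SARAWT vehicle 3 it was -58.6 percentage points (exact permutation p = 0.200, the smallest that 2 against 3 allows).

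Over all cells, 34 of the 35 genes had a negative log2 fold change after aristolochic acid, with a median of -1.61, whereas 52.9% of the 18365 genes tested were negative and their median was -0.06. No gene passed an adjusted p of 0.05 in edgeR's quasi-likelihood test, neither among the 35 nor among all genes, so 0% of genes were called. Of the 35 genes, 11 had an unadjusted p under 0.05 and all 11 were lower, against 13.8% of all genes in either direction and 9.41% that were lower. DESeq2 called 166 genes (0.904%) and none of the 35. The count of 11 depended on single libraries. It was 0 without SARAWT vehicle 1 (4.36% of all genes in either direction), 0 without aristolochic acid 3 (2.63%), 1 without aristolochic acid 1 (6.36%), 10 without SARAWT vehicle 2 (6.28%), 21 without SARAWT vehicle 3 (46.8%) and 26 without aristolochic acid 2 (15.2%). In bulk sums of this kind, fewer proximal tubule cells and less RNA per cell cannot be told apart. The leukocyte markers moved in the other direction: the 10 genes of that list, each with UMIs in every library, summed to 1361, 2429 and 23741 CPM in the vehicle libraries and 24882, 7895 and 16215 CPM in the aristolochic acid libraries, and their part in the values was not tested.

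Slc34a1 encodes NaPi-IIa, the main phosphate carrier of the brush border (chromosome 13, 55398187 to 55415592 on GRCm38). Over all cells it stood at 2329, 2070.4 and 637 CPM in SARAWT vehicle 1 to 3 and at 353, 1600 and 409 CPM in SARAWT aristolochic acid 1 to 3. Both groups overlapped, with SARAWT vehicle 3 below aristolochic acid 2 (log2 fold change -1.27 ± 0.79 (SE), edgeR adjusted p = 0.415). Across the 9 libraries its level over all cells was most like that of Miox, which opens the inositol ring (Pearson r = 0.965 of log2(CPM + 1)), Slc26a1 (0.959) and Lrp2 (0.942), and least like that of Cyp7b1 (-0.386). These correlations share libraries and cell composition and are given as a description.

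Lrp2 encodes megalin, the endocytic receptor for filtered protein (chromosome 2, 69424340 to 69586065). It was at 1126, 1633 and 251 CPM over all cells after vehicle and 136, 559.9 and 205 CPM after aristolochic acid, and only SARAWT vehicle 3 fell within the treated range. Its partner receptor cubilin, Cubn, was at 106, 219 and 53.8 CPM against 30.5, 109 and 41.0 CPM. Neither passed the test, at log2 fold changes of -1.89 ± 0.79 (SE) and -1.19 ± 0.62 (SE). Aqp1, the water channel of the proximal tubule (chromosome 6, 55336432 to 55348555), was the member whose groups did not overlap: it was at 118, 111 and 67.9 CPM after vehicle and 44.6, 66.8 and 39.5 CPM after aristolochic acid. Such lower values without overlap occurred in 3.51% of all genes, and higher ones in 11.2% of all genes and in none of the 35.

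Leaving out SARAWT vehicle 3 changed these calls. The SARAWT vehicle libraries that remain are numbers 572 and 576 and every treated library is numbered 1618 or higher, so that in this fit treatment and block of library numbers cannot be told apart. In it 5836 of 18276 genes (31.9%) passed the adjusted threshold over all cells, and so did 11 of the 35. The share of the 35 that was called was thus near that of all genes, and only its direction differed. Of these, 10 were lower, against 14.9% of all genes lower: Slc27a2, a very-long-chain acyl-CoA synthetase that also carries fatty acids into the cell, at -3.01 ± 0.68 (SE), Ttc36 at -2.83 ± 0.80, Pck1, the phosphoenolpyruvate carboxykinase of glucose production, at -2.81 ± 0.69, the dicarboxylate carrier Slc13a3 at -2.48 ± 0.62, the urate and phosphate transporter Slc17a3 at -2.37 ± 0.69, the gluconeogenic enzyme Fbp1 at -2.36 ± 0.57, Lrp2 at -2.35 ± 0.60, G6pc, the catalytic subunit of glucose-6-phosphatase, at -2.001 ± 0.57, the glycine and neutral amino acid carrier Slc6a18 at -1.90 ± 0.48, and Aqp1 at -1.38 ± 0.31. Among the SARAWT libraries the genes that follow were lowest in aristolochic acid 1 and 3, except Slc13a3. Slc27a2 was at 1735, 792 and 299 CPM over all cells after vehicle and 123, 343 and 86.3 CPM after aristolochic acid. Pck1 was at 1156, 2675 and 279 CPM and 185, 571 and 136 CPM, and Ttc36 at 2798, 1348 and 443 CPM and 171, 712 and 143 CPM. In each of these, aristolochic acid 2 lay above SARAWT vehicle 3 and below SARAWT vehicle 1 and 2. Fbp1 was at 1568, 1324 and 294 CPM and 189.9, 596 and 178 CPM. Slc6a18 was at 128, 94.0 and 54.6 CPM and 27.1, 54.8 and 20.9 CPM. In Slc6a18 aristolochic acid 2 and SARAWT vehicle 3 stood at nearly the same level. G6pc was at 163, 309 and 84.7 CPM and 50.8, 116 and 27.6 CPM. Slc13a3 was at 134, 111 and 15.6 CPM and 11.1, 46.8 and 17.7 CPM, and Slc17a3 at 384, 148 and 74.7 CPM and 44.1, 110.2 and 28.4 CPM. For these 3 genes as well SARAWT vehicle 3 lay within the treated range. The adjusted p of the 10 genes in edgeR's quasi-likelihood test lay between 0.0230 and 0.0429. Cyp7b1, an oxysterol hydroxylase, was the 1 gene of the 11 that was higher (4.98 ± 1.03 (SE), adjusted p = 0.0187), against 17% of all genes higher. Without SARAWT vehicle 3, lower values that did not overlap occurred in 18 of the 35 genes and in 23.7% of all genes, and higher ones in Cyp7b1 and in 33.2% of all genes.

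Only the block of library numbers 1618 to 1623 held both SARAWT groups, with 1 library of each. Within it the library labelled SARAWT aristolochic acid 1 was below SARAWT vehicle 3 in 34 of the 35 genes over all cells, with a median log2 ratio of -0.88 against 0.05 for all genes tested, and the exception was Slc26a1 at 0.09. This is 1 library against 1, with no test. With the lowest library numbers, 572 and 576, as a term in the fit, the median of the 35 genes was -0.16, with 21 negative and 14 positive. Both of those libraries are SARAWT vehicle, so that the SARAWT vehicle level then rests on SARAWT vehicle 3 alone. A fit without the 2 libraries whose Zfyve9 went against the labels was added after seeing the data. In it 32 of the 35 genes were negative and the median was -1.34. It called 0 genes, and 1 of the 35 had an unadjusted p under 0.05 (6.36% of all genes).

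**Figure D2:**
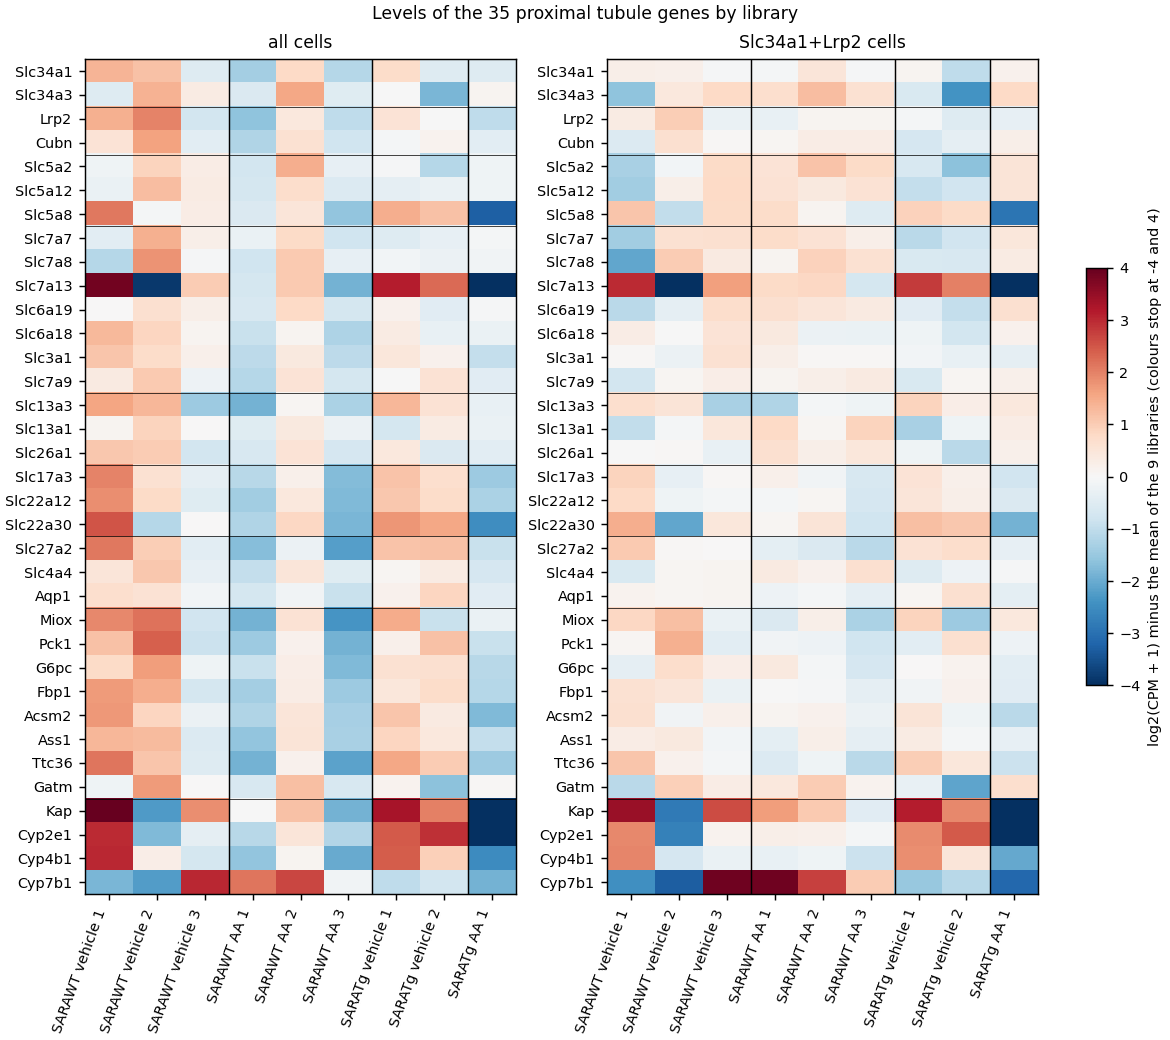
Colours give log2(CPM + 1) of each of the 35 genes minus its mean over the 9 libraries, over all cells (left) and over Slc34a1+Lrp2 cells (right). Rows are grouped by role and columns by labelled group, and colours stop at -4 and 4. Over all cells most rows are highest in SARAWT vehicle 1 and 2. Kap, Slc7a13 and Cyp2e1 are lowest in SARAWT vehicle 2 and SARATg aristolochic acid 1 in both populations.

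Within Slc34a1+Lrp2 cells the differences were smaller and no longer ran one way. Slc34a1 and Lrp2, which define these cells, stood there at 1058 to 2993 CPM and 675 to 1921 CPM over the 9 libraries. Tubule cells with under 3 UMIs of these 2 genes are left out. The smaller differences therefore do not show that levels per tubule cell were kept. In Slc34a1+Lrp2 cells the median number of UMIs per cell was 6649 to 12078 across libraries and the median mitochondrial share 9.80% to 17.7%. The spread between libraries, as the SD of log2(CPM + 1), was smaller than over all cells for 22 of the 33 genes, with medians of 0.746 and 1.11. Apart from the 6 genes described below that were lowest in CPM in both Xist-high libraries, the highest library exceeded the lowest by 1.74-fold to 16.2-fold, with a median of 3.49-fold over 27 genes. After aristolochic acid 21 of the 33 genes had a negative log2 fold change in SARAWT mice and 12 a positive one, with a median of -0.54, against 51.9% negative and a median of -0.03 over the 15485 genes tested. No gene was called (0%), with a smallest adjusted p of 0.384, and 3 of the 33 had an unadjusted p under 0.05, all lower, against 12.7% of all genes in either direction and 6.42% that were lower. DESeq2 called 61 genes (0.394%) and none of the 33. Leaving out 1 library moved the count of 3 to 1 without SARAWT vehicle 1 (4.97% of all genes) or aristolochic acid 3 (3.52%), 2 without aristolochic acid 1 (7.93%), 5 without aristolochic acid 2 (12.2%), 9 without SARAWT vehicle 3 (32.6%) and 12 without SARAWT vehicle 2 (8.27%). Leukocyte markers summed to 297, 440.4 and 4004 CPM in these cells after vehicle and to 4696, 3034 and 6546 CPM after aristolochic acid, and their part in the values was not tested. In cells without a UMI of Ptprc 20 of the 33 genes were negative, with a median of -0.42.

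In SARAWT mice 3 genes had lower values in these cells after aristolochic acid with no overlap between the groups, and 2.26% of all genes did. Slc27a2 (chromosome 2, 126552407 to 126588243) stood at 1866, 931 and 909 CPM after vehicle and 693, 606 and 425 CPM after aristolochic acid. Every treated library lay below every vehicle library, SARAWT vehicle 3 included (log2 fold change -1.37 ± 0.40 (SE), edgeR unadjusted p = 0.00951, adjusted p = 0.384). Without SARAWT vehicle 3 the log2 fold change of Slc27a2 was -1.58 ± 0.42 (SE) and the adjusted p was 0.0558.

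Ttc36 encodes a small tetratricopeptide repeat protein (chromosome 9, 44799397 to 44803072). It was at 2977, 1563 and 1318 CPM in the Slc34a1+Lrp2 cells of the vehicle libraries and at 946, 1213 and 649 CPM in those of the aristolochic acid libraries. The groups were apart, by a narrow margin between SARAWT vehicle 3 and aristolochic acid 2 (log2 fold change -1.31 ± 0.46 (SE), edgeR unadjusted p = 0.0217, adjusted p = 0.384). Aqp1 was at 124, 118 and 119.7 CPM after vehicle and 98.0, 106 and 87.6 CPM after aristolochic acid, which is the tightest vehicle group of the 3 genes (log2 fold change -0.54 ± 0.21 (SE), adjusted p = 0.384).

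In the same cells higher values without overlap occurred in 2 of the 33 genes, and in 13.8% of all genes. Slc26a1, the basolateral sulfate and oxalate exchanger, was at 93.3, 97.1 and 77.3 CPM after vehicle and 147, 111 and 128 CPM after aristolochic acid. Slc4a4, the sodium bicarbonate cotransporter that returns bicarbonate to the blood, was at 673, 1101 and 1127 CPM after vehicle and 1318, 1179.7 and 1609 CPM after aristolochic acid. Neither passed the test, with log2 fold changes of 0.29 ± 0.28 (SE) and 0.28 ± 0.21 (SE) and edgeR adjusted p of 0.598 and 0.507.

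The roles did not go one way in Slc34a1+Lrp2 cells. The 4 androgen-regulated or P450 genes had a median log2 fold change of -1.26, with 3 negative, 1 positive and 0 called. Their levels by library are given further below. Of the 8 metabolic genes 7 were negative, with a median of -0.63. Pck1 was at 1224, 3095 and 857 CPM after vehicle and 1044, 997 and 658 CPM after aristolochic acid (log2 fold change -1.12 ± 0.49 (SE)), with SARAWT vehicle 3 inside the treated range. Miox was at 3330.4, 4393 and 1556 CPM after vehicle and 1279, 2227 and 778 CPM after aristolochic acid, with SARAWT vehicle 3 again inside (-1.30 ± 0.71 (SE)). Fbp1 was at -0.69 ± 0.31 (SE), Ass1, which makes argininosuccinate for arginine synthesis, at -0.58 ± 0.32, G6pc at -0.51 ± 0.32, and Acsm2, a medium-chain acyl-CoA synthetase, at -0.50 ± 0.35. Gatm, the first enzyme of creatine synthesis, was the exception at 0.15 ± 0.59. None of the 8 passed the adjusted threshold.

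The 3 organic anion and urate carriers were negative as well: Slc17a3 at a log2 fold change of -0.72 ± 0.42 (SE), Slc22a12, the urate transporter URAT1, at -0.68 ± 0.39, and Slc22a30 at -0.79 ± 0.80. Of the sulfate and dicarboxylate carriers, Slc13a3 was at 143, 130 and 36.2 CPM after vehicle and 38.5, 86.4 and 80.4 CPM after aristolochic acid (-0.84 ± 0.56 (SE)). Its lowest library was SARAWT vehicle 3. Slc13a1, the sodium sulfate cotransporter, was at 340, 637 and 925 CPM after vehicle and 1180.3, 711 and 1249.6 CPM after aristolochic acid, at 0.50 ± 0.39 (SE). No carrier of these groups passed the test.

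Among the carriers of filtered glucose and amino acids the signs were mixed. Slc5a2, the glucose carrier SGLT2 of the early tubule, was at 104, 240 and 437 CPM after vehicle and 375, 563 and 435 CPM after aristolochic acid, at a log2 fold change of 0.64 ± 0.49 (SE). Slc5a12, a lactate carrier of the early tubule, was at 71.5, 221 and 324 CPM and 281, 246 and 280 CPM, at 0.20 ± 0.42 (SE). SARAWT vehicle 3 lay within the treated range for Slc5a2 and above it for Slc5a12. Of the 7 amino acid genes 4 were positive and 3 negative: Slc6a19, the neutral amino acid carrier B0AT1, at 0.36 ± 0.40 (SE), Slc7a8, a basolateral exchanger subunit, at 0.20 ± 0.60, its relative Slc7a7 at 0.17 ± 0.44, and Slc7a9, the light subunit of the cystine carrier, at 0.11 ± 0.25, against Slc3a1, the heavy subunit of the same carrier, at -0.31 ± 0.25, Slc6a18 at -0.55 ± 0.29, and Slc7a13, a late-tubule transporter, at -1.77 ± 1.38. The second phosphate carrier Slc34a3 was at 0.54 ± 0.65 (SE) and Cubn at -0.08 ± 0.25. None of these 11 genes was called. Slc5a8, whose levels by library are given further below, was at -0.62 and was not called either.

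Leaving out SARAWT vehicle 3 gave 1571 called genes of 15735 (9.98%) in Slc34a1+Lrp2 cells and 1 of the 33. Here too treatment and block of library numbers cannot be told apart. The gene was higher, as 7.08% of all genes were (2.9% were lower). That gene was Cyp7b1 (chromosome 3, 18071950 to 18243338), at a log2 fold change of 6.93 ± 1.36 (SE) with an edgeR adjusted p of 0.0283. Its level was 0.942 and 0.0768 CPM in SARAWT vehicle 1 and 2, 155 CPM in SARAWT vehicle 3, 155, 69.2 and 20.4 CPM in SARAWT aristolochic acid 1 to 3, 2.65 and 3.94 CPM in SARATg vehicle, and 0.192 CPM in SARATg aristolochic acid 1. With SARAWT vehicle 3 in the fit it was 0.49 ± 1.87 (SE), so that 1 library decided this call. Cyp7b1 exceeded its own level in leukocyte barcodes in 7 of the 9 libraries, where 32 of the 33 genes did so in all 9. Without SARAWT vehicle 3, lower values that did not overlap occurred in 8 of the 33 genes (15% of all genes) and higher ones in 10 (30.6% of all genes).

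Within library numbers 1618 to 1623 the Slc34a1+Lrp2 cells of SARAWT aristolochic acid 1 differed little from those of SARAWT vehicle 3. Of the 33 genes 21 were lower and 12 higher, with a median log2 ratio of -0.06 against 0.18 for all genes tested, from -0.93 for Kap to 0.92 for Slc26a1. With library numbers 572 and 576 as a term, which again leaves SARAWT vehicle 3 alone as the vehicle level, the median was -0.27, with 27 genes negative and 6 positive. Without the 2 libraries whose Zfyve9 went against the labels it was -0.51, with 21 negative and none called.

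**Figure D3:**
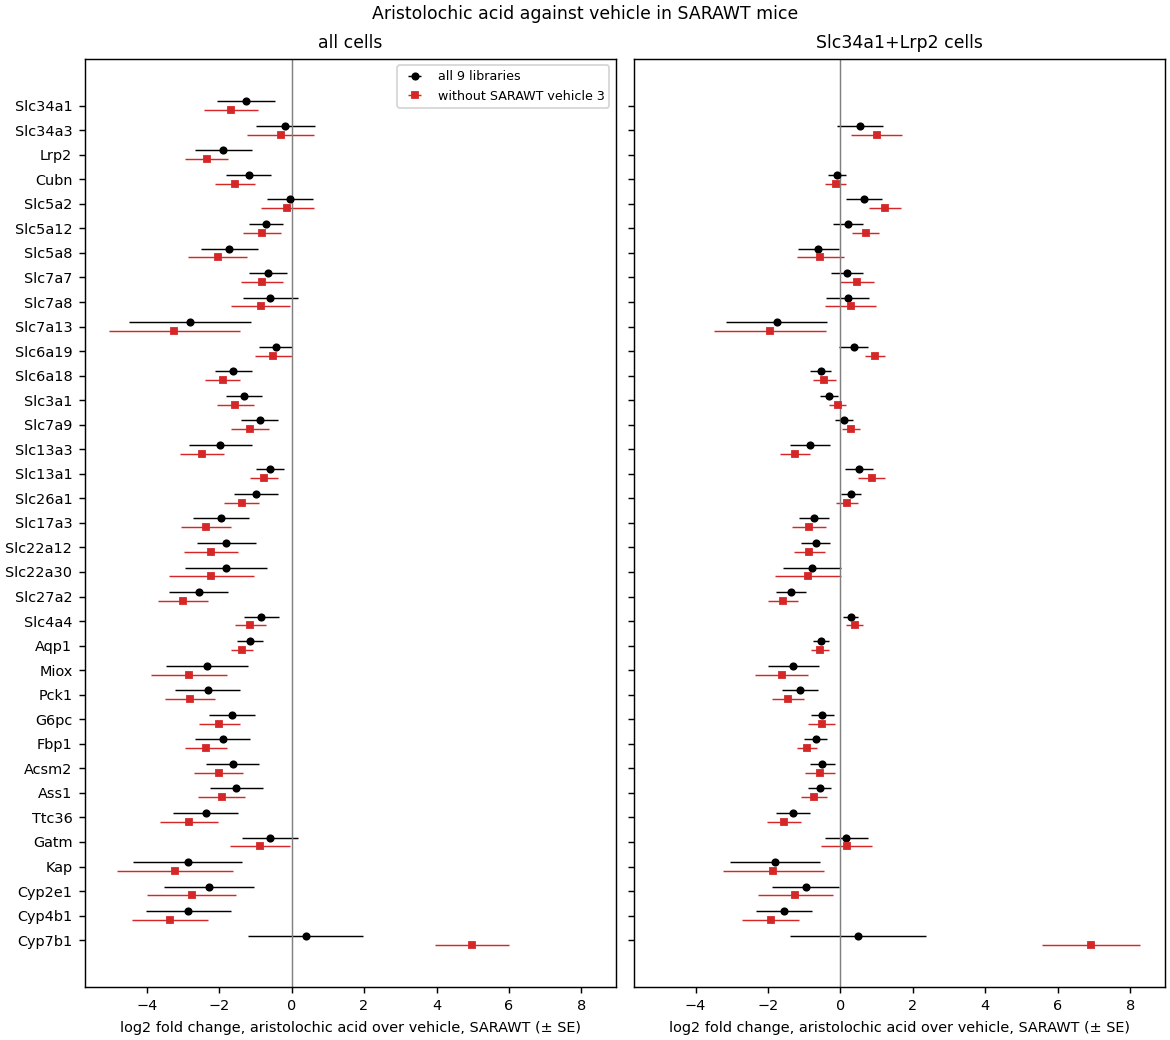
Points give the log2 fold change of aristolochic acid over vehicle in SARAWT mice for each gene, with bars of 1 SE from edgeR, over all cells (left) and Slc34a1+Lrp2 cells (right), with all 9 libraries (black circles) and without SARAWT vehicle 3 (red squares). Over all cells 34 of the 35 genes lie below 0 in both fits, and in Slc34a1+Lrp2 cells 21 of 33 do. Slc34a1 and Lrp2 define the right-hand cells and have no point there, and Cyp7b1 is the gene that moves most between the fits.

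Genes of the androgen-regulated and late-tubule kind varied most between libraries. Kap encodes the kidney androgen-regulated protein (chromosome 6, 133849851 to 133853762). In Slc34a1+Lrp2 cells it was at 45237, 576 and 25096 CPM in SARAWT vehicle 1 to 3, 13135, 8604 and 3002 CPM in SARAWT aristolochic acid 1 to 3, 36537 and 15449.5 CPM in SARATg vehicle 1 and 2, and 1.73 CPM in SARATg aristolochic acid 1. Its 2 lowest libraries were the 2 with high Xist. The same held for Slc7a13, at 575, 1.84 and 223 CPM in SARAWT vehicle, 121, 126 and 43.1 CPM in SARAWT aristolochic acid, 497 and 289 CPM in SARATg vehicle, and 0.449 CPM in SARATg aristolochic acid 1. Cyp2e1, a cytochrome P450 that oxidises small solvents, was at 615, 23.6 and 177 CPM, 187, 186 and 154 CPM, 595 and 893 CPM, and 8.65 CPM in the same order, and again was lowest in the Xist-high libraries.

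Lower values without overlap between the 2 Xist-high libraries and the other 7 occurred in 6 of the 33 genes in Slc34a1+Lrp2 cells, and in 1.49% of all genes. Beside Kap, Slc7a13 and Cyp2e1 these were Slc22a30 (21.5 and 24.7 CPM against 53.8 to 260.4 CPM), Slc5a8, a monocarboxylate carrier (41.0 and 9.94 CPM against 56.5 to 177 CPM), and Cyp7b1 (0.0768 and 0.192 CPM against 0.942 to 155 CPM). Slc5a8 was at 177, 41.0 and 139.9 CPM in SARAWT vehicle, 137, 88.4 and 56.5 CPM in SARAWT aristolochic acid, 156 and 139 CPM in SARATg vehicle, and 9.94 CPM in SARATg aristolochic acid 1. None of the 33 genes was higher without overlap, as 8.62% of all genes were. Over all cells 4 of the 35 were lower without overlap (Cyp2e1, Cyp7b1, Kap and Slc7a13), and 0.702% of all genes, and none of the 35 was higher (6.86% of all genes). The libraries were split by Xist and not by a labelled group, and the split carries no test. By percent of Slc34a1+Lrp2 cells with a UMI, Slc5a8 did not separate, at 24.8% in SARAWT vehicle 2 against 8.03% in SARAWT aristolochic acid 3. Nor did Cyp7b1, at 0.210% in SARATg aristolochic acid 1 against 0.186% in SARAWT vehicle 1. Free RNA is visible for Kap, which leukocyte barcodes of the same libraries held at 1.54 to 1402 CPM. Across the 33 genes the level in Slc34a1+Lrp2 cells exceeded that in leukocyte barcodes by a mean log2 ratio of 2.41 to 6.79, with a median of 5.67, and by under 3 for Slc7a8, Cyp7b1 and Gatm.

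**Figure D4:**
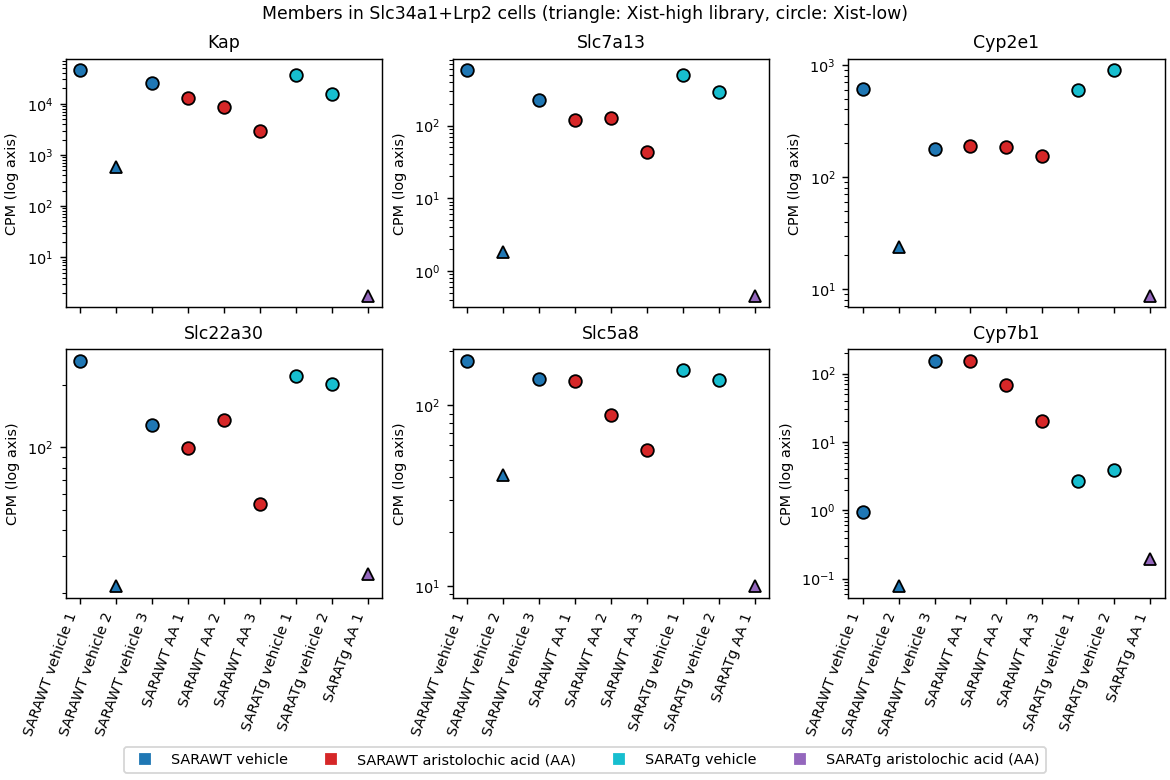
Each panel gives 1 gene in CPM over Slc34a1+Lrp2 cells on a log axis in the 9 libraries, with colours for the labelled groups and triangles for the 2 libraries with high Xist. In all 6 panels the triangles are the lowest points of the panel, and for Kap they lie at 576 and 1.73 CPM.

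Since 1 SARAWT vehicle library was Xist-high and no SARAWT aristolochic acid library was, the treatment comparison was also fitted with high Xist as a term. With all 9 libraries this called no member in either population, and 12 of the 33 genes in Slc34a1+Lrp2 cells had an unadjusted p under 0.05 (8.38% of all genes). For the treatment comparison this term amounts to leaving out SARAWT vehicle 2, which gave 12 of the 33 genes as well (8.27% of all genes). With the term and without SARAWT vehicle 3, a combination chosen after seeing the data, the vehicle level rests on SARAWT vehicle 1 alone, which is assumed to vary like the libraries of the other groups. The errors and adjusted p that follow therefore hold no spread between SARAWT vehicle libraries, and treatment cannot be told apart from that library or its block of numbers. Over all cells 3856 genes (21.1%, with 10.7% higher and 10.4% lower) passed the adjusted threshold there, and 9 of the 35 genes, all lower, from -1.56 for Aqp1 to -4.24 for Slc7a13. In Slc34a1+Lrp2 cells 2073 of 15735 genes (13.2%) passed, and 10 of the 33. Lower were 6, against 5.58% of all genes: Slc7a13 at -2.94 ± 0.61 (SE), Cyp4b1 at -2.75 ± 0.56, Cyp2e1 at -2.20 ± 0.31, Slc27a2 at -2.09 ± 0.36, Ttc36 at -2.04 ± 0.48 and Slc17a3 at -1.45 ± 0.38. Higher were 4, against 7.59% of all genes: Cyp7b1 at 6.03 ± 1.29 (SE), Slc7a8 at 2.33 ± 0.45, Slc7a7 at 1.55 ± 0.35 and Slc5a12 at 1.51 ± 0.26. Cyp4b1 itself was at 1424, 231 and 307 CPM in SARAWT vehicle 1 to 3 and 300.2, 325 and 199 CPM in SARAWT aristolochic acid 1 to 3, so that SARAWT vehicle 1 was the library that differed. Slc7a8 was at 20.8, 185 and 118 CPM and 97.2, 173 and 138 CPM, and Slc7a7 at 65.8, 264 and 270.2 CPM and 290.3, 264 and 204 CPM. Here too SARAWT vehicle 1 alone lay outside the treated range by a wide margin, on the low side. Slc17a3 was at 412, 173 and 227 CPM and 251, 199.8 and 141 CPM. Without the 2 Xist-high libraries and SARAWT vehicle 3, which leaves the same single vehicle library, 8 of the 35 genes were called over all cells and 9 of the 33 in Slc34a1+Lrp2 cells, against 21% and 12.7% of all genes.

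The second comparison set the transgene against wild type without aristolochic acid. SARATg vehicle libraries had 39.4% and 33.1% Slc34a1+Lrp2 cells, inside the SARAWT vehicle range of 18.7% to 82.2%. The means were 36.3% ± 4.40 (SD, n = 2) and 59.0% ± 34.96 (SD, n = 3), a difference of -22.7 percentage points (exact permutation p = 0.600, two-sided, with 0.2 the smallest possible). Over all cells 32 of the 35 genes had a negative fitted log2 fold change in SARATg, with a median of -0.53 against -0.14 for all genes, and in Slc34a1+Lrp2 cells 20 of 33, with a median of -0.15 against -0.06. Of all genes tested, 62.1% were negative over all cells and 55.8% in Slc34a1+Lrp2 cells. Means in CPM can differ in sign from the fit, as for Slc5a8 over all cells, at 93.4 CPM in SARATg vehicle and 81.8 CPM in SARAWT vehicle. No gene was called by edgeR in either population (0%). At an unadjusted p under 0.05 there were 4.01% and 4.60% of all genes and none of the 35 or 33. Marker lists of other cell types did not all go one way in SARATg vehicle over all cells. The 5 endothelial markers summed to 419.7 and 238 CPM against 38.1, 29.6 and 104 CPM in SARAWT vehicle. The 3 markers of the thick ascending limb summed to 355 and 690.4 CPM against 118, 246 and 163 CPM. Each marker of these lists had UMIs in every library. Podocyte sums were higher without overlap as well. The distal convoluted tubule markers summed to 57.1 and 93.8 CPM against 174, 285 and 75.7 CPM. Leukocyte and collecting duct sums lay inside the SARAWT vehicle range. Their part in the values was not tested. DESeq2 called 119 genes (0.648%) over all cells and 50 (0.323%) in Slc34a1+Lrp2 cells, and none of the 35. With library numbers 572 and 576 as a term, the SARAWT vehicle level rests on SARAWT vehicle 3 alone. In that fit the signs over all cells turned, with 25 of the 35 genes higher in SARATg and a median of 0.76. In Slc34a1+Lrp2 cells the median was 0.16. SARATg vehicle shares no block of library numbers with SARAWT vehicle, so that genotype and block cannot be told apart in this comparison.

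Single genes overlapped between SARATg and SARAWT vehicle with few exceptions. Slc6a18 was at 97.7 and 66.4 CPM in the Slc34a1+Lrp2 cells of SARATg vehicle and at 137, 110.1 and 163 CPM in those of SARAWT vehicle, and was the 1 of the 33 genes that was lower without overlap (11.6% of all genes were). Slc5a12 was that gene over all cells, at 62.4 and 66.1 CPM against 66.6, 188 and 101 CPM, so that SARATg vehicle 2 lay just below SARAWT vehicle 1 (5.33% of all genes were lower). No member was higher without overlap, as 9.18% of all genes were over all cells and 6.41% in Slc34a1+Lrp2 cells. Slc27a2 was at 1353 and 1482 CPM in the Slc34a1+Lrp2 cells of SARATg vehicle, within the SARAWT vehicle range, and its log2 fold change was 0.22 ± 0.44 (SE). The 2 SARATg vehicle libraries were far apart in these cells for Miox (3476 and 689 CPM) and Gatm (896 and 256 CPM). Without SARAWT vehicle 3 no member was called in either population, and 1.82% of all genes were over all cells (0% in Slc34a1+Lrp2 cells). Leaving out the Xist-high SARAWT vehicle 2 gave 29 of the 35 genes lower with a median of -0.51 over all cells, 23 of the 33 lower with a median of -0.17 in Slc34a1+Lrp2 cells, and no call. Other single libraries weighed more in this comparison. Without SARAWT vehicle 1 the median was -0.25 over all cells and -0.29 in Slc34a1+Lrp2 cells, where 9 of the 33 genes had an unadjusted p under 0.05 (9.09% of all genes), and without SARATg vehicle 1 that median was -0.33 with 5 of the 33 (5.11% of all genes). None of them passed the adjusted threshold.

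The third comparison, SARATg against SARAWT after aristolochic acid, rests on the 1 library labelled SARATg aristolochic acid 1, which is Xist-high and whose Zfyve9 went against its label. Genotype, sex-linked expression and that library cannot be told apart in it, and its spread is assumed to be that of the other groups, so that the errors and p-values below, the interaction's included, hold no spread of that arm. It had 17.9% Slc34a1+Lrp2 cells, inside the SARAWT aristolochic acid range. Of all genes tested in this comparison, 55.4% were negative over all cells, with a median of -0.05. In Slc34a1+Lrp2 cells 52.0% of all genes were, with a median of -0.02. In Slc34a1+Lrp2 cells 29 of the 33 genes were lower, with a median of -0.48, and 5 had an unadjusted p under 0.05, against 2.64% of all genes in either direction and 1.16% that were lower. These were Kap (-12.40 ± 3.31 (SE)), Slc7a13 (-7.94 ± 3.23), Cyp2e1 (-4.52 ± 1.76), Slc5a8 (-3.42 ± 1.01) and Acsm2 (-1.26 ± 0.53). The first 4 are among the genes that were lowest in both Xist-high libraries. That list required the library labelled SARATg aristolochic acid 1 to lie below every SARAWT aristolochic acid library. Its genes are therefore low here by construction, and the overlap is no separate result. For Kap, the 1.73 CPM of that library was close to the 1.54 CPM of its leukocyte barcodes, so that the size of its fold is set against background. Slc7a13 had a UMI in 0.351% of the Slc34a1+Lrp2 cells of that library, so that the size of its fold rests on few cells. Acsm2 was at 548 CPM, against 970.1 to 1280.2 CPM in SARAWT aristolochic acid and 1042 CPM in the Xist-high SARAWT vehicle 2. With high Xist as a term 21 of the 33 genes were lower and 12 higher, with a median of -0.21. Since SARATg aristolochic acid 1 is the only library of its group, that term is set by SARAWT vehicle 2 against the other SARAWT vehicle libraries. The fit therefore cannot tell which genes differ apart from Xist. Kap and Slc5a8 were the 2 that had an unadjusted p under 0.05 without SARAWT aristolochic acid 2 (median -0.23, 1.62% of all genes) and without the library labelled SARAWT aristolochic acid 1 (median -0.47, 2.73% of all genes). No gene was called by edgeR (0%), and DESeq2 called Kap and Slc5a8 among 17 genes (0.11%) in these cells and Kap among 10 (0.0545%) over all cells.

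Over all cells 31 of the 35 genes were lower in the library labelled SARATg aristolochic acid 1, with a median of -0.68, and 2 had an unadjusted p under 0.05 (Kap and Slc5a8, both lower, against 1.84% of all genes and 0.327% that were lower). Without SARAWT aristolochic acid 2, the treated library with the most Slc34a1+Lrp2 cells, that median was 0.20, with 23 of the 35 genes higher. Without the library labelled SARAWT aristolochic acid 1 all 35 were lower, with a median of -0.95. In the library labelled SARATg aristolochic acid 1 the thick ascending limb markers summed to 946 CPM over all cells, against 129 to 343 CPM in SARAWT aristolochic acid. The distal convoluted tubule markers summed to 320 against 85.1 to 150 CPM, and the endothelial markers to 111 against 17.6 to 85.5 CPM. Leukocyte and collecting duct sums lay inside the SARAWT aristolochic acid range. Their part in the values was not tested. The difference of the aristolochic acid effect between the genotypes, tested as an interaction, called no gene in either population (0%) by edgeR, and DESeq2 called 8 genes (0.0436%) over all cells, none of them a member, and 14 (0.0904%) in Slc34a1+Lrp2 cells, with Kap among them. At an unadjusted p under 0.05 it gave Kap over all cells, where 2.18% of all genes passed and 0.964% were lower. Within Slc34a1+Lrp2 cells it gave Kap, Slc5a8, Cyp2e1 and Slc7a13, all 4 lower and all among the genes lowest in both Xist-high libraries, where 3.02% of all genes passed and 1.43% were lower. That list of lowest genes was drawn with the library labelled SARATg aristolochic acid 1 in it, so this overlap too is no separate result. With high Xist as a term, which here too is set by SARAWT vehicle 2 alone, the median of the interaction over the 33 genes was -0.007. Single SARAWT vehicle libraries weighed on the interaction. Over all cells its median over the 35 genes was -0.04, and it was -0.42 without SARAWT vehicle 1 and 0.20 without SARAWT vehicle 3. In Slc34a1+Lrp2 cells these medians were -0.26, -0.29 and -0.30. The genes at an unadjusted p under 0.05 also changed in number with the library left out. Slc27a2 had an interaction of -0.06 ± 0.71 (SE) in Slc34a1+Lrp2 cells and Ttc36 one of -0.77 ± 0.83. This comparison shares its SARAWT libraries with the first.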

How the data were processed

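Single cells of 9 kidney libraries were measured with 10x Genomics 3′ chemistry. The matrices that the authors deposited hold raw counts, with 1 value for each gene and barcode and no scaling, from Cell Ranger 3.0.2 (per the file headers). The submitters' processing notes also name Seurat 2.3.4 and mm10. Skin libraries were not used here.

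A barcode was kept if it showed 200 genes or more and no more than 50% mitochondrial UMIs. Sums per library, over all cells and over cells with 3 or more UMIs of Slc34a1 plus Lrp2, were fitted across all genes in edgeR 4.0.16 by its quasi-likelihood test (4 groups, TMM scaling, low counts removed by filterByExpr, Benjamini-Hochberg adjustment, threshold 0.05). DESeq2 1.42.0 was the alternative. Leukocyte barcodes held 3 or more UMIs of Ptprc, Coro1a and Laptm5 together and fewer than 3 of Slc34a1 plus Lrp2. Doublets stayed in the main values and were left out in an alternative (scrublet in scanpy 1.11.5, at 0.8% per 1000 cells). Shares were compared by exact permutation over libraries, and the fits were checked on simulated counts. Positions come from GENCODE vM21 on GRCm38, which matched 30934 of 31053 identifiers, and promoters from RefSeq on GRCm38.p6.

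Members, other lists and tests were chosen with earlier results of these data known. All 35 members are accounted for, with values per library for those called under any setting or changed most within a role, and other genes come only from the lists, Zfyve9 and the sex-linked genes. Alternatives covered the test, scaling, the filters on counts, mitochondrial share and doublets, the UMI minimum, each library, the replicate block, library number and Xist. A list of transcription factors and a promoter motif are not reported here.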

Additional observations from a re-analysis of the deposited data

Results flagged for a closer look

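In Slc34a1+Lrp2 cells the CPM of Miox, the inositol oxygenase, after aristolochic acid lay on opposite sides of the vehicle mean in the 2 genotypes. It was at 2548 CPM in the library labelled SARATg aristolochic acid 1, above the SARATg vehicle mean of 2082 CPM, whereas the 3 SARAWT aristolochic acid libraries, at 778 to 2227 CPM, were all below the SARAWT vehicle mean of 3093 CPM. The SARATg side is 1 library, which is Xist-high and whose Zfyve9 went against its label. The library labelled SARAWT aristolochic acid 1, whose Zfyve9 also went against its label, was at 1279 CPM, below both vehicle means. The 2 SARATg vehicle libraries, at 3476 and 689 CPM, lay on both sides of the library labelled SARATg aristolochic acid 1. The interaction did not pass edgeR's quasi-likelihood test, at 1.09 ± 1.23 (SE). It was smaller than the fall fitted in SARAWT mice, so that in the fit Miox was lower after aristolochic acid in both genotypes.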

How the results depend on the processing

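Some medians over the members changed sign. The median of SARATg against SARAWT after vehicle went from -0.53 to 0.76 over all cells and from -0.15 to 0.16 in Slc34a1+Lrp2 cells with library number as a term. In that fit SARAWT vehicle 3 alone sets the SARAWT vehicle level. The median after aristolochic acid went from -0.68 to 0.20 over all cells without SARAWT aristolochic acid 2. Of the counts of called members and the shares tried under each setting, 168 stayed on their side of the threshold and 9 moved. With so few libraries the shares could not pass the threshold under any setting, and every main count was 0. The tally therefore does not measure how stable the results are. The aristolochic acid comparison in SARAWT mice called 0 members in either population in the main fit. Without SARAWT vehicle 3 it called 11 over all cells and 1 in Slc34a1+Lrp2 cells, where 31.9% and 9.98% of all genes were called. Both combinations with Xist, and the fit without the 2 libraries whose Zfyve9 went against the labels, were chosen after seeing the data. With Xist-high libraries as a term and without SARAWT vehicle 3 it called 9 and 10 (21.1% and 13.2% of all genes), and without the Xist-high libraries and SARAWT vehicle 3 together 8 and 9, where 21% and 12.7% of all genes were called. With DESeq2 the comparison of genotypes after aristolochic acid called 1 member over all cells and 2 in Slc34a1+Lrp2 cells, and the interaction called 1 in the latter. The number of genes called in the SARAWT treatment comparison was 0 with edgeR and 166 with DESeq2 over all cells, and 0 and 61 in Slc34a1+Lrp2 cells.

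Leaving out 1 library at a time moved the SARAWT treatment median of the members from -2.39 to -0.83 over all cells and from -0.66 to -0.19 in Slc34a1+Lrp2 cells, and its count of called members from 0 to 11 and from 0 to 1, the upper counts both without SARAWT vehicle 3 at the shares of all genes given above. The share difference moved from -58.6 to -26.8 percentage points in SARAWT mice and from -42.8 to -11.1 between genotypes.

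The replicate numbers did not pair the libraries: same-numbered SARAWT vehicle and aristolochic acid libraries had deviations correlated at -0.390, 0.370 and 0.318 over all cells, and not every library correlated best with its own number. The fit with the replicate block called 0 members, with medians of -1.48 over all cells and -0.51 in Slc34a1+Lrp2 cells.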

Other observations

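A further 40 proximal tubule genes, listed beside the 35, were measured in the same libraries. Over all cells 38 of the 40 were lower after aristolochic acid in SARAWT mice, with a median log2 fold change of -1.47, and in Slc34a1+Lrp2 cells 31 of 40, with a median of -0.48. None was called by edgeR's quasi-likelihood test, and 15 (14 lower, 1 higher) and 8 (7 lower, 1 higher) had an unadjusted p under 0.05, against 13.8% and 12.7% of all genes. In Slc34a1+Lrp2 cells Hpd, an enzyme of tyrosine breakdown, was at 67.1, 194 and 4.13 CPM in SARAWT vehicle 1 to 3, 2.81, 2.31 and 0.541 CPM in SARAWT aristolochic acid 1 to 3, 54.4 and 209.9 CPM in SARATg vehicle, and 1.54 CPM in SARATg aristolochic acid 1 (SARAWT log2 fold change -5.68 ± 1.35 (SE), adjusted p = 0.384). Cyp27b1, which activates vitamin D, was at 2.67, 1.33 and 6.58 CPM in SARAWT vehicle, 52.3, 13.3 and 11.6 CPM in SARAWT aristolochic acid, 2.61 and 1.60 CPM in SARATg vehicle, and 12.8 CPM in SARATg aristolochic acid 1 (2.65 ± 0.77 (SE), adjusted p = 0.384). Slc22a6, the organic anion transporter OAT1, was at 752, 307 and 92.5 CPM in SARAWT vehicle and 117, 234 and 110.4 CPM in SARAWT aristolochic acid, with SARAWT vehicle 3 the lowest. These genes were picked from the list after their values were seen.

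Acsm3, an acyl-CoA synthetase of the same list, had its lowest levels in the Xist-high libraries, at 0.351 and 0.128 CPM in Slc34a1+Lrp2 cells against 46.9 to 510.4 CPM in the other 7. Such lower values without overlap occurred in 1.49% of all genes, and Acsm3 too was picked from the list after its values were seen. The 10 tubule injury genes had a median log2 fold change of 0.39 in Slc34a1+Lrp2 cells after aristolochic acid in SARAWT mice, with 8 positive and none called, and summed to 211, 1995 and 6950 CPM in SARAWT vehicle 1 to 3 against 4208, 2869 and 7093 CPM in SARAWT aristolochic acid.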
